A study of Mus musculus with 24 samples.

Results

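The genes of the interleukin 6 and interleukin 12 cytokine families were followed in bone marrow-derived macrophages (BMDMs) from wild-type (WT) C57BL/6N mice and from Irg1-/- C57BL/6N mice. *Irg1*, listed here by its symbol *Acod1*, encodes the enzyme that makes itaconate, and the Irg1-/- mice lack a working copy. The members were the rows of the count table whose Ensembl identifiers carry the symbols *Il6*, *Il12a*, *Il12b*, *Il23a*, *Il27*, *Ebi3*, *Lif*, *Osm* and *Clcf1* in GENCODE M21, which made 9 of the 22165 genes. Of these 9, 8 had reads and passed the filter on low counts, and *Clcf1* had none. Marrow from mice 8 to 20 weeks old was grown for 7 days with macrophage colony-stimulating factor (M-CSF, 20 ng/ml) and plated. Cells of each genotype were left without stimulation (Unstim.), received lipopolysaccharide (LPS, 100 ng/ml) for 3 h, named LPS 3h or non-tolerized, or for 24 h, named LPS 24h. The labels give the LPS 3h cells a mock first step in place of the earlier LPS. Tolerized cells, labelled LPS 24h->LPS 3h and also called restimulated here, had LPS for 24 h, rested in fresh medium for 1 h and met LPS a second time for 3 h. Every genotype and treatment was represented by 3 separately grown cultures, so that 8 groups and 24 libraries were compared.

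The interleukin 6 family signals through receptors that share the gp130 subunit (*Il6st*) and that act through JAK kinases and STAT3. *Il6* drives fever, the hepatic acute-phase response and T helper cell differentiation, *Lif* and *Osm* act on stromal cells, liver and haematopoietic precursors, and *Clcf1* encodes a ligand of the ciliary neurotrophic factor receptor. The interleukin 12 family is made of heterodimers that share subunits. The p40 chain from *Il12b* pairs with the p35 chain from *Il12a* to give interleukin 12 and with the p19 chain from *Il23a* to give interleukin 23, while the p28 chain from *Il27* pairs with the *Ebi3* product to give interleukin 27. Macrophages that meet LPS through Toll-like receptor 4 make several of these cytokines within hours, and cells that have met LPS before often make less of them on a second exposure, a state known as endotoxin tolerance.

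Promoter sequences are shown for *Il6* and *Il12b*, whose transcripts rose and fell together in these data, and for *Ebi3*, whose transcript did not pass any test of a fall after LPS 3h. Each is the stretch of 250 bases before the RefSeq start site on GRCm38.p6, plus strand, 5′ to 3′. RefSeq entries were found for 5 of the 9 members (*Il6*, *Il12a*, *Il12b*, *Ebi3* and *Lif*). Capitals mark the letters that matched an NF-kB motif (GGG and CC with any 5 bases between them), an AP-1 motif (TGANTCA) or a C/EBP motif (TTNNGNAA), each searched on both strands.
Il6, chr5:30012864-30013113: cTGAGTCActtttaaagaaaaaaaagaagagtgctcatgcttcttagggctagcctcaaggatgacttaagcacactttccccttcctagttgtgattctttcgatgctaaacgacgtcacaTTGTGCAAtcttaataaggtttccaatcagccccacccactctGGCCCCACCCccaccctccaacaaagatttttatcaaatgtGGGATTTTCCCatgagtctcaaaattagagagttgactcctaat
Il12b, chr11:44399813-44400062: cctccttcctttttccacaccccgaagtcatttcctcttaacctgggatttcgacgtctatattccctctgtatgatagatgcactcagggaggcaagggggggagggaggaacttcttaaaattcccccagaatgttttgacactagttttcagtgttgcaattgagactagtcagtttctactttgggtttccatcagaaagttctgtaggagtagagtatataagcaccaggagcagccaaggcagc
Ebi3, chr17:55952373-55952622: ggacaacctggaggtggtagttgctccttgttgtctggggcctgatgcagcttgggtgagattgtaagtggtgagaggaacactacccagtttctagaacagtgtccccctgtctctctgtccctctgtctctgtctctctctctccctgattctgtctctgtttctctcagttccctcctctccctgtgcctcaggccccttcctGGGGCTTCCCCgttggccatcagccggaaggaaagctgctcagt
In *Il6*, NF-kB letters occurred from base -44 to -34 and from -85 to -76 before the start, AP-1 letters from -249 to -243 and C/EBP letters from -128 to -121. *Ebi3* had NF-kB letters from -44 to -34, as overlapping matches on both strands, and the *Il12b* window held no match to these motifs or to an interferon response motif (GAAA repeated after any 2 bases). Among the 32851 promoter windows of the same length in the RefSeq table, 45.8% held the NF-kB letters, 6.7% the AP-1 letters, 36.8% the C/EBP letters and 3.0% the interferon response letters, so these matches describe the windows and nothing more.

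The depth on genes was 3927378 reads in the shallowest library, 11539055 at the median and 20430359 in the deepest. Levels are given as CPM, the reads of a gene scaled to a common library size (TMM scaling). The library primes cDNA at the poly(A) end, so a level does not scale with transcript length, and levels are compared between groups and not between genes. *Acod1* checked the genotypes of the libraries given LPS: it reached 3794 to 28063 CPM in the WT ones and at most 26.4 CPM in any Irg1-/- library. In Unstim. it was 5.82 to 10.0 CPM in WT and 7.79 to 11.9 in Irg1-/-. It therefore does not check the genotype of the Unstim. libraries. The library names began with 1 of 4 numbered prefixes, whose meaning the labels do not give and which were treated here as a possible batch. All 6 Unstim. libraries had prefix 4, which was shared by 1 WT library of each LPS treatment and by no Irg1-/- library given LPS. Prefix and LPS treatment therefore cannot be told apart within Irg1-/- in comparisons with Unstim. The same holds for LPS 24h against LPS 3h in Irg1-/-. There LPS 24h had only prefix 1 and LPS 3h only prefixes 2 and 3. The 8 macrophage markers summed to 3319 to 9833 CPM in every library, whereas the 7 dendritic cell markers summed to 0.219 to 11.1 CPM, with *Cd209a* at 0 throughout. B cell, T and NK cell, and mast cell and basophil lists summed to at most 1.51 CPM.

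A first LPS exposure raised 7 of the 8 tested cytokine genes in each genotype, *Osm* alone missing the threshold of an adjusted p of 0.05 (edgeR quasi-likelihood test, Benjamini-Hochberg adjustment over 11878 genes). *Osm* lay near it, and all 8 passed with DESeq2's Wald test. Over all genes, 15.8% were called higher in WT and 17.0% in Irg1-/-. The median log2 fold change of the 8 genes was 10.19 in WT and 8.52 in Irg1-/- (8.92 and 7.01 with *Il12a*, at 0 in Unstim., set at its lower bound). The median of all tested genes was -0.18 and -0.20, or -0.10 and -0.14 with DESeq2's size factors. After LPS 24h, 5 of the 8 remained above Unstim. in WT and 4 in Irg1-/-, beside 9.25% and 7.31% of all genes. Against LPS 3h, 6 of the 8 were lower at LPS 24h in WT and 7 in Irg1-/-, beside 15.5% and 16.9% of all genes. The summed levels of neutrophil and fibroblast markers were lower at LPS 24h as well: 6 neutrophil markers summed to 341 to 556 CPM at LPS 3h and 74.0 to 223 at LPS 24h, and 4 fibroblast markers to 275 to 414 and 147 to 222. Gene by gene, 2 of 5 tested neutrophil markers were called lower in WT and 1 of 5 in Irg1-/-, and 2 of 4 fibroblast markers in each genotype. Their part in the result was not tested. Comparisons within a genotype share their groups and are not independent of each other.

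**Figure D1:**
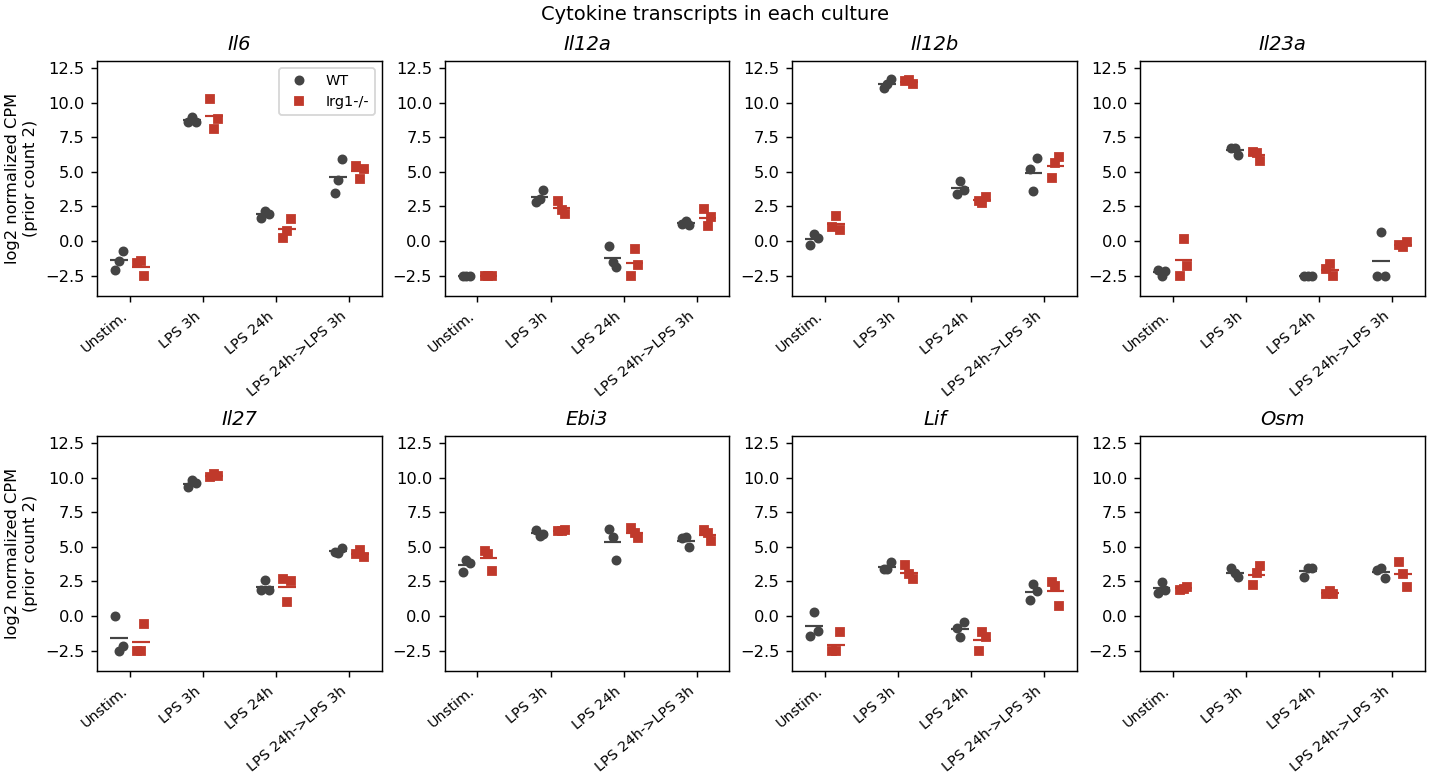
Levels of the 8 cytokine genes with reads, as log2 normalized CPM with a prior count of 2, by treatment; each point is 1 culture and each short line the mean of 3, circles for WT and squares for Irg1-/-. *Il6*, *Il12b*, *Il23a* and *Il27* peak at LPS 3h and collapse at LPS 24h, whereas no *Ebi3* difference between LPS treatments passed the test and *Osm* spans less than the other genes.

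*Il6* (ENSMUSG00000025746.11, plus strand of chromosome 5, bases 30013114 to 30019981 of GRCm38) was nearly absent from unstimulated cells. It stood at 0.0644, 0.191 and 0.439 CPM in WT Unstim., 378, 502 and 393 in LPS 3h, 2.92, 4.38 and 3.73 in LPS 24h, and 11.1, 21.4 and 59.8 in LPS 24h->LPS 3h. No pair of these 4 WT groups overlapped, and each neighbouring pair in the order LPS 3h, restimulated, LPS 24h, Unstim. passed the test. In Irg1-/- the values were 0.156, 0.188 and 0 in Unstim., 1251, 280 and 441 in LPS 3h, 1.01, 1.47 and 2.80 in LPS 24h, and 43.4, 21.9 and 37.3 in LPS 24h->LPS 3h. The order was the same, again without overlap, and the first Irg1-/- culture at LPS 3h stood well above the other 2. The log2 fold change from Unstim. to LPS 3h was 10.67 ± 0.77 (SE, n = 3 per group) in WT, with an adjusted p of 1.35e-12 by edgeR. In Irg1-/-, where Unstim. held 2 reads in all, the ratio of LPS 3h to Unstim. was 11506 with a 95% counting interval from 3185 to 95014. Restimulation of tolerized cells raised *Il6* over LPS 24h by 3.06 ± 0.54 (log2) in WT (adjusted p = 0.000555, edgeR) and by 4.23 ± 0.57 in Irg1-/- (adjusted p = 4.92e-06).

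*Il12b*, which encodes the p40 chain shared by interleukins 12 and 23 (ENSMUSG00000004296.14, plus strand of chromosome 11, 44400063 to 44414033), had 0.644, 1.24 and 0.975 CPM in WT Unstim., 2155, 2549.8 and 3309 in LPS 3h, 10.6, 19.7 and 12.6 in LPS 24h, and 36.0, 11.9 and 64.1 in LPS 24h->LPS 3h. Irg1-/- cultures had 1.87, 3.39 and 1.55, then 3053, 3116 and 2637, then 7.23, 6.52 and 9.005, and then 22.9, 49.7 and 67.5 in the same order. The LPS 3h cultures stood far above all others in both genotypes, and the WT LPS 24h and restimulated cultures overlapped. *Il12b* was lower at LPS 24h than at LPS 3h, with log2 fold changes of -7.54 ± 0.53 in WT and -8.59 ± 0.56 in Irg1-/- (adjusted p = 4.34e-12 and 4.63e-13, edgeR). Restimulation raised it over LPS 24h in Irg1-/- by 2.62 ± 0.43 (adjusted p = 0.000116). The WT difference was 1.38 ± 0.41 and missed the threshold (adjusted p = 0.0531, edgeR). It passed with DESeq2's Wald test (adjusted p = 0.0213), with no filter on low counts (0.00253, edgeR) and without WT LPS 24h->LPS 3h replicate 2 (0.00475), which was the lowest of its group, and without replicate 3 it was 0.76 (0.424).

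*Il12a* (ENSMUSG00000027776.12, plus strand of chromosome 3, 68690644 to 68698547) encodes p35, the chain that completes interleukin 12. No read of it was counted in any of the 6 Unstim. libraries. WT cultures had 6.93, 7.94 and 12.6 CPM at LPS 3h, 0.609, 0.179 and 0.0955 at LPS 24h and 2.19, 2.53 and 2.10 at LPS 24h->LPS 3h. Irg1-/- cultures had 7.21, 4.61 and 3.69, then 0, 0.491 and 0.127, and then 4.67, 1.96 and 3.11. In WT the 3 LPS groups did not overlap, while in Irg1-/- the LPS 3h and restimulated cultures did. LPS 3h was at least 144-fold higher than Unstim. in WT and at least 56.1-fold higher in Irg1-/-, against a floor of 3 reads over the group. *Il12a* was higher in LPS 24h->LPS 3h than in LPS 24h in Irg1-/- (log2 fold change 3.96 ± 0.87, adjusted p = 0.00457, edgeR), and the WT value was 2.97 ± 0.88 (adjusted p = 0.0521). Against LPS 3h, tolerized WT cells were lower, with a log2 fold change of -2.01 ± 0.75 (adjusted p = 0.04996, edgeR). That call was lost in 4 of 8 other settings and in all 6 fits without 1 of the compared libraries (adjusted p up to 0.159), and the Irg1-/- value was -0.68 ± 0.73 (adjusted p = 0.520).

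The reads of the interleukin 12 chains shifted against each other. There were 263, 311 and 321 *Il12b* reads per *Il12a* read in the WT LPS 3h libraries when ranked, and 424, 677 and 714 in Irg1-/-. After restimulation the ratio was 4.69, 16.4 and 30.5 in WT and 4.89, 21.7 and 25.4 in Irg1-/-, so the groups were apart in both genotypes. These ratios of reads do not give the ratio of molecules.

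*Il23a* (ENSMUSG00000025383.1, minus strand of chromosome 10, 128296139 to 128298752), the p19 chain of interleukin 23, showed the steepest loss. WT cultures had 0.0644, 0 and 0.0488 CPM in Unstim., 106, 107 and 73.8 at LPS 3h, 0 in each LPS 24h library, and 0, 1.36 and 0 at LPS 24h->LPS 3h. The WT signal after restimulation came from 14 reads in replicate 2 alone. Irg1-/- cultures had 0, 0.942 and 0.107, then 86.1, 83.2 and 55.1, then 0.0676, 0.140 and 0, and then 0.657, 0.580 and 0.759. In each genotype the LPS 3h cultures stood apart from all others, and the restimulated Irg1-/- cultures held 8 to 10 reads each. WT LPS 24h was at least 945-fold lower than LPS 3h, and in Irg1-/- the ratio of LPS 3h to LPS 24h was 1352 with a 95% counting interval from 462 to 6563. *Il23a* was lower in tolerized cells than at LPS 3h, with log2 fold changes of -7.69 ± 0.73 in WT and -6.79 ± 0.69 in Irg1-/- (adjusted p = 8.81e-09 and 1.56e-08, edgeR). The ratio of restimulated to LPS 24h cells in Irg1-/- was 11.6, with a counting interval from 3.58 to 60.0, and missed the threshold (adjusted p = 0.0506, edgeR).

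*Il27*, the p28 chain of interleukin 27 (ENSMUSG00000044701.5, minus strand of chromosome 7, 126589010 to 126594941), followed *Il12b* in shape. WT cultures had 0.837, 0 and 0.0488 CPM in Unstim., 633, 889 and 792 at LPS 3h, 3.53, 5.90 and 3.44 at LPS 24h and 24.2, 23.9 and 30.2 at LPS 24h->LPS 3h. In Irg1-/- they had 0, 0 and 0.482, then 1039, 1247 and 1123, then 6.15, 1.89 and 5.52, and then 22.7, 26.6 and 18.7. No groups of one genotype overlapped, and every restimulated culture lay above every LPS 24h culture and far below the LPS 3h cultures. Restimulation raised *Il27* over LPS 24h, with log2 fold changes of 2.60 ± 0.48 in WT and 2.32 ± 0.46 in Irg1-/- (adjusted p = 0.000877 and 0.00146, edgeR). It remained below LPS 3h, with log2 fold changes of -4.88 ± 0.51 and -5.65 ± 0.52 (adjusted p = 1.73e-08 and 1.95e-09). Exons of *Apobr* on the opposite strand share 10.1% of the exon bases of *Il27*, and the strand setting of the counting is not given in the sources used here.

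*Ebi3*, whose product pairs with p28 (ENSMUSG00000003206.6, plus strand of chromosome 17, 55952640 to 55957022), behaved differently from its partner. It had 9.02, 16.4 and 14.4 CPM in WT Unstim., 76.2, 55.2 and 60.4 at LPS 3h, 78.8, 52.0 and 16.7 at LPS 24h and 48.8, 53.3 and 31.7 at LPS 24h->LPS 3h. Irg1-/- cultures had 26.3, 22.1 and 9.58, then 69.2, 70.0 and 73.5, then 80.3, 64.6 and 49.4, and then 74.9, 64.8 and 42.6. The LPS cultures lay above the Unstim. cultures in each treatment and genotype, although WT LPS 24h replicate 3 did so only narrowly. Log2 fold changes over Unstim. were 2.27 ± 0.41, 1.89 ± 0.41 and 1.75 ± 0.41 for LPS 3h, LPS 24h and restimulation in WT, and 1.89 ± 0.41, 1.76 ± 0.41 and 1.67 ± 0.41 in Irg1-/- (adjusted p from 6.03e-05 to 0.00281, edgeR). With the name prefix as a term the WT value at LPS 3h was 1.74 and remained past the threshold, while the other 5 values were between 0.82 and 1.17 and did not (adjusted p from 0.0577 to 0.315).

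No *Ebi3* difference between LPS treatments passed the test. LPS 24h differed from LPS 3h by -0.38 (95% interval from -1.18 to 0.43) in WT and by -0.13 (-0.93 to 0.67) in Irg1-/-, on the log2 scale. LPS 24h->LPS 3h differed from LPS 3h by -0.52 (-1.33 to 0.29) and -0.22 (-1.02 to 0.58), and from LPS 24h by -0.14 (-0.94 to 0.66) and -0.09 (-0.89 to 0.71). Within prefix 4 alone, the single WT LPS 24h library differed from its LPS 3h library by -1.84 on the log2 scale, against 0.05 and -0.09 in prefixes 1 and 2. The intervals leave room for a change of either sign, but for none of the size seen for *Il27*. The antisense gene *Gm16712* shares 23.4% of the exon bases of *Ebi3*, so the source of its reads is uncertain in that part.

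The reads of the interleukin 27 chains therefore changed their proportion with time. The LPS 3h libraries held 8.30, 16.1 and 13.1 *Il27* reads per *Ebi3* read in WT and 15.0, 17.8 and 15.3 in Irg1-/-. At LPS 24h the values were 0.0448, 0.113 and 0.206 in WT and 0.0767, 0.0293 and 0.112 in Irg1-/-, the lowest of the LPS treatments. Restimulation brought them to 0.496, 0.448 and 0.954 in WT and 0.303, 0.411 and 0.439 in Irg1-/-. Within each genotype the 3 LPS treatments were fully apart.

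**Figure D2:**
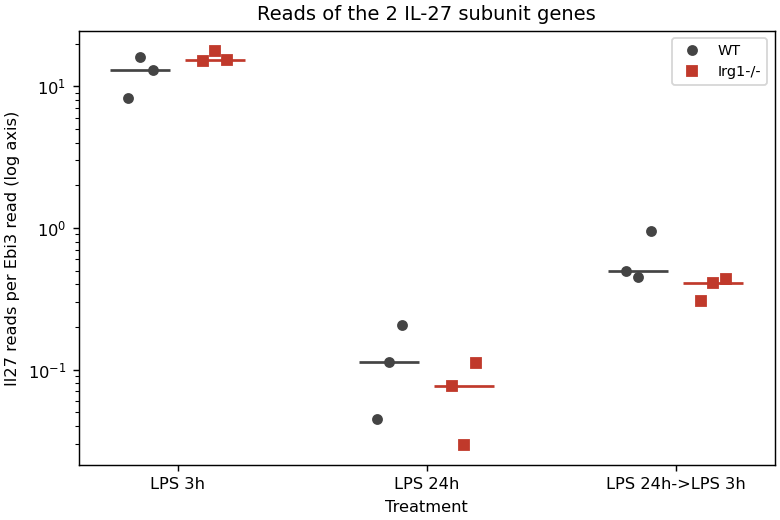
*Il27* reads per *Ebi3* read (log axis) by LPS treatment; each point is 1 library and each line the median of 3, circles for WT and squares for Irg1-/-. All LPS 3h libraries lie above 8, and all libraries of LPS 24h or of restimulated cells below 1.

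*Lif*, which maintains stem cells in culture and acts on many tissues (ENSMUSG00000034394.14, plus strand of chromosome 11, 4257557 to 4272514), was induced only briefly. WT cultures had 0.193, 1.05 and 0.293 CPM in Unstim., 10.4, 10.4 and 14.7 at LPS 3h, 0.365, 0.179 and 0.573 at LPS 24h and 2.08, 4.87 and 3.31 at LPS 24h->LPS 3h. Irg1-/- cultures had 0, 0 and 0.268, then 12.7, 7.94 and 6.16, then 0, 0.280 and 0.170, and then 5.48, 4.35 and 1.52. Unstim. and LPS 24h overlapped in both genotypes, with log2 fold changes of -0.36 ± 0.84 in WT and 0.08 ± 1.16 in Irg1-/- (adjusted p = 0.843 and 0.980, edgeR). *Lif* rose by 4.60 ± 0.78 and 5.87 ± 0.91 at LPS 3h (adjusted p = 2.11e-05 and 4.97e-06). Restimulation raised it over LPS 24h by 3.17 ± 0.79 in WT (adjusted p = 0.0161) and 4.55 ± 0.82 in Irg1-/- (adjusted p = 0.000448). The WT call was lost with only the compared groups (adjusted p = 0.0896, edgeR) and when replicate 2 of WT LPS 24h (0.0913) or replicate 2 of the restimulated WT cultures (0.0526) was left out. The WT tolerized cultures stayed below LPS 3h, with a log2 fold change of -1.79 ± 0.67 (adjusted p = 0.0484, edgeR), a call that each of the 6 fits without 1 compared library lost (adjusted p from 0.0531 to 0.145).

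*Osm*, the neighbour of *Lif* (ENSMUSG00000058755.3, plus strand of chromosome 11, 4236420 to 4241026, ending 16530 bases before *Lif* starts), encodes oncostatin M and did not share its pattern. WT cultures had 3.03, 5.44 and 3.46 CPM in Unstim., 10.8, 8.42 and 6.89 at LPS 3h, 6.82, 10.7 and 10.9 at LPS 24h and 9.91, 11.2 and 6.54 at LPS 24h->LPS 3h. The WT LPS groups overlapped each other and all stood above Unstim., with log2 fold changes of 1.13 ± 0.45, 1.26 ± 0.45 and 1.22 ± 0.45 that missed the threshold (adjusted p from 0.0516 to 0.0549, edgeR). The LPS 3h value passed in 4 of 8 other settings (adjusted p down to 0.0274, DESeq2's Wald test) and in 2 of 6 fits without 1 compared library. Irg1-/- cultures had 3.58, 3.77 and 4.18 in Unstim., 4.63, 8.42 and 12.3 at LPS 3h, 2.84, 3.30 and 2.85 at LPS 24h and 14.9, 8.12 and 4.18 at LPS 24h->LPS 3h. The Irg1-/- LPS 24h cultures lay below all other Irg1-/- cultures. *Osm* was lower in Irg1-/- at LPS 24h than at LPS 3h, with a log2 fold change of -1.49 ± 0.46 (adjusted p = 0.0118, edgeR) and was higher by 1.60 ± 0.45 after restimulation (adjusted p = 0.0315). With the name prefix as a term these values became -0.12 (adjusted p = 0.936) and 1.34 (0.0778), and without Irg1-/- LPS 24h->LPS 3h replicate 1 the latter was 1.08 (0.297). The rise over Unstim. after restimulation in Irg1-/- was 1.23 ± 0.46 (adjusted p = 0.0494), a call lost in 6 of 8 other settings and in 5 of 6 fits without 1 compared library (adjusted p up to 0.348, edgeR).

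*Clcf1* (ENSMUSG00000040663.8, plus strand of chromosome 19, 4214238 to 4223490) had 0 reads in all 24 libraries. That allows a level of up to 0.0112 CPM over all libraries together, and of up to 0.147 CPM in the deepest library and 0.764 CPM in the shallowest (3 reads of the total). The same-strand gene *AC109138.7* shares 8.2% of its exon bases in GENCODE M21, where a counter may discard reads as ambiguous. Such limits cover counting error only.

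Restimulation after tolerization raised *Il6*, *Il27* and *Lif* over LPS 24h in WT, which is 3 of 8 genes beside 2.46% of all genes. In Irg1-/- it raised those and *Il12a*, *Il12b* and *Osm*, 6 of 8 beside 3.44% of all genes. The difference between the genotypes in this response passed the test for none of the 8, as given below, and DESeq2's Wald test called 5 in WT. Over Unstim., tolerized cells had 6 of the 8 genes higher in WT and 7 in Irg1-/-, beside 11.3% and 12.2% of all genes. Against LPS 3h, 6 were lower in WT and 4 in Irg1-/-, beside 13.1% and 14.1% of all genes. The WT count was 4 in each of the 6 fits without 1 compared library and 4 to 6 in the other settings, while the Irg1-/- count was 4 in all of them, so the counts do not separate the genotypes. The median of all genes moved by 0.13 and 0.12 in this last comparison, or by 0.05 and 0.01 with DESeq2's size factors.

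The members differed widely in their level after restimulation as a share of their LPS 3h level, with no earlier level subtracted. The tolerized mean was 0.477% of the LPS 3h mean for *Il23a* in WT and 0.890% in Irg1-/-, 1.40% and 1.59% for *Il12b*, 3.38% and 1.99% for *Il27*, and 7.25% and 5.20% for *Il6*. It was 24.9% and 62.8% for *Il12a*, 28.9% and 42.4% for *Lif*, 69.7% and 85.7% for *Ebi3*, and 106% and 107% for *Osm*. Single cultures ranged from 0.445% to 2.40% for *Il12b* in WT and from 37.9% to 90.4% for *Il12a* in Irg1-/-. In both genotypes, every culture's percentage for the first 4 of these genes lay below every culture's percentage for the last 4, a split read from the values and not tested. Before restimulation, at LPS 24h, *Ebi3* already stood at 76.9% of the LPS 3h mean in WT and 91.3% in Irg1-/-, and *Osm* at 109% and 35.4%. *Il12a* stood there at 3.22% and 3.99%, and *Lif* at 3.14% and 1.68%. For *Il12a* the WT to Irg1-/- contrast in restimulation against LPS 3h was 1.33 ± 1.03 on the log2 scale (adjusted p = 0.841, edgeR). The summed levels of neutrophil and fibroblast markers moved with this step too, to 62.9 to 143 CPM and 94.4 to 166 CPM after restimulation. In Unstim. these markers summed to 355 to 621 and 244 to 331 CPM, and their part in the result was not tested. In bulk RNA, fewer cells of a type and less RNA per cell cannot be told apart.

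**Figure D3:**
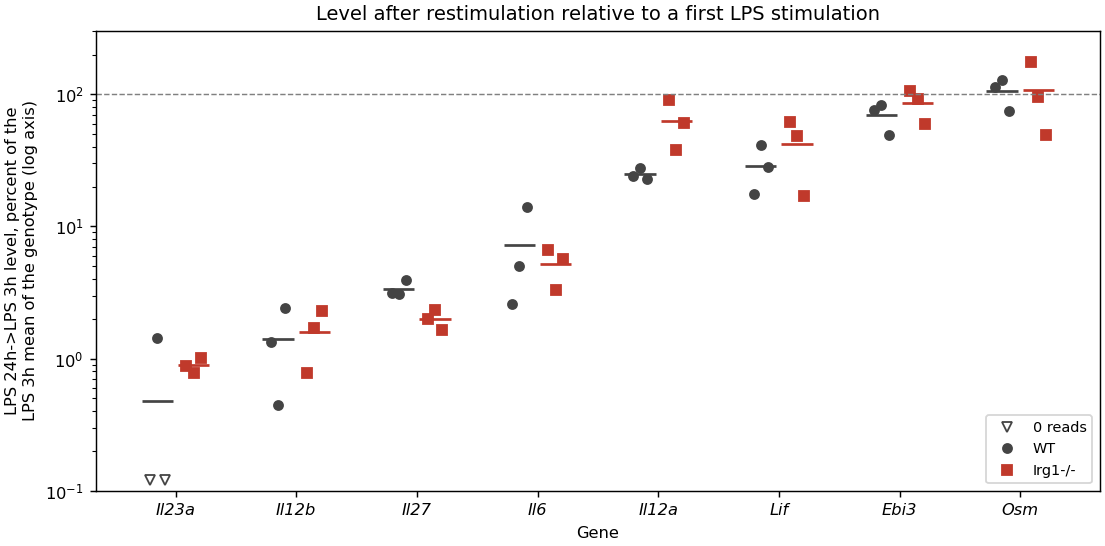
Level of each gene in LPS 24h->LPS 3h cultures as a percent of the LPS 3h mean of the same genotype (log axis); points are cultures, short lines means of 3, open triangles cultures with 0 reads, and the dashed line marks 100. *Il23a*, *Il12b*, *Il27* and *Il6* lie below 15 and the other 4 genes at or above 17.

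Whether the loss of *Irg1* changed these transcripts was asked in each treatment. None of the 8 genes passed the test between genotypes in Unstim., LPS 3h, LPS 24h or restimulated cultures by edgeR, beside 0.0421%, 0.00842%, 0.598% and 0.118% of all genes. Of the 32 tests, 3 had an unadjusted p under 0.05, and DESeq2's Wald test called 1, *Osm* at LPS 24h. *Osm* was the nearest to the threshold, with 2.84, 3.30 and 2.85 CPM in Irg1-/- below 6.82, 10.7 and 10.9 in WT. The log2 fold change was -1.66 ± 0.45 (95% interval from -2.59 to -0.74, adjusted p = 0.0932, edgeR). It had an adjusted p of 0.0171 with DESeq2 and 0.0470 without WT LPS 24h replicate 1, which had less *Osm* than both other WT cultures. All 3 Irg1-/- LPS 24h libraries had prefix 1, as did 1 of the WT ones, and within that prefix the difference was -1.15. With the prefix as a term it was -1.49 (adjusted p = 0.278, edgeR).

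The other values below an unadjusted p of 0.05 were both for *Il12b*. It was higher in Irg1-/- in Unstim. (1.19 ± 0.53, adjusted p = 0.863, edgeR) and lower at LPS 24h (-0.91 ± 0.42, adjusted p = 0.452), without overlap of cultures in either case. At LPS 24h *Il6* also did not overlap, with Irg1-/- below WT (log2 fold change -1.03 ± 0.55, adjusted p = 0.559), and at LPS 3h *Il27* did not, with Irg1-/- above WT (0.56 ± 0.43, adjusted p = 0.979). With 3 cultures per group such separation can arise by chance. Its share over all genes was not computed, so it is not read as a difference. After restimulation the 8 differences ran from -0.20 (*Il27*, 95% interval from -1.09 to 0.69) to 0.55 (*Il23a*, -1.07 to 2.16). All of the intervals after restimulation but that of *Osm* reach beyond 1 on the log2 scale in at least 1 direction. For any of the 8 genes, a missed threshold does not show that the genotypes were alike.

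**Figure D4:**
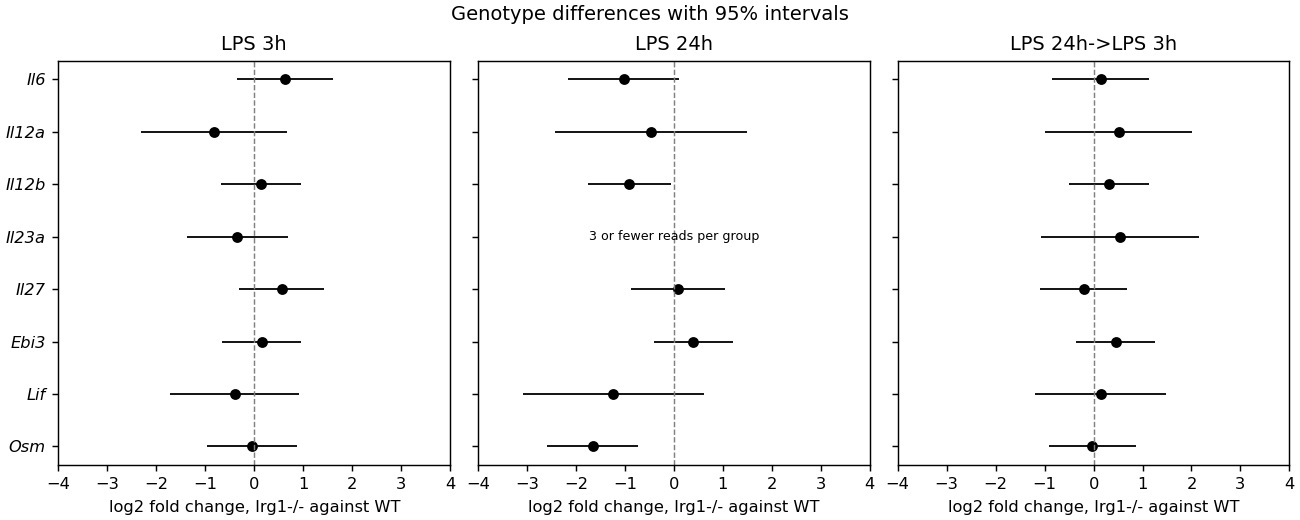
Log2 fold change of Irg1-/- against WT for the 8 genes in each LPS treatment; points are edgeR estimates from 3 cultures per group and lines 95% intervals. *Osm* at LPS 24h has the interval farthest from 0 (-2.59 to -0.74), and after restimulation every interval includes 0.

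The response to LPS was also compared between genotypes by interaction tests. None of the 8 genes passed for LPS 3h over Unstim., LPS 24h over Unstim., restimulation over LPS 24h or restimulation over LPS 3h, by edgeR or by DESeq2, beside 0.00842%, 0.210%, 0.00842% and 0% of all genes. Of these 32 tests, 4 had an unadjusted p under 0.05. For *Il12b*, the change from Unstim. to LPS 24h in Irg1-/- minus that in WT was -2.10 ± 0.67 on the log2 scale (adjusted p = 0.289, edgeR; 0.0284 with no filter on low counts). *Osm* had a difference of 1.64 ± 0.63 for restimulation over LPS 24h (adjusted p = 0.419).

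Receptor genes of the families were mixed in direction. Of 11 receptor genes 8 were tested, and at LPS 3h over Unstim. 1 was higher and 3 were lower in WT, and 1 was higher and 2 were lower in Irg1-/-. Of the 11878 genes tested, that comparison called 3805 in WT and 4260 in Irg1-/-, of which 1874 and 2018 were higher. Against LPS 3h, tolerized cells had 3 receptors higher and 1 lower in WT, and 2 higher and 3 lower in Irg1-/-. Among all genes 3028 and 3233 were called there, of which 1557 and 1679 were lower. The receptor counts are too small to be read apart from these shares. *Il6ra*, the ligand-binding chain for interleukin 6, had 229 ± 73.4 CPM (SD, n = 3) in WT Unstim., 34.0 ± 2.64 at LPS 3h, 214 ± 61.2 at LPS 24h and 68.2 ± 12.5 at LPS 24h->LPS 3h. In Irg1-/- the values were 230.3 ± 65.8, 34.6 ± 7.27, 189.8 ± 25.2 and 91.0 ± 15.8. *Il6ra* thus fell at each exposure of 3 h: the log2 fold changes were -2.75 ± 0.32 and -2.73 ± 0.32 for the first (adjusted p = 2.60e-08 and 2.92e-08, edgeR), and -1.65 ± 0.30 and -1.06 ± 0.30 for the second against LPS 24h (adjusted p = 0.000877 and 0.0299). *Il6st*, the shared gp130 chain, was lower than in Unstim. in all LPS groups, with log2 fold changes of -1.89 ± 0.35 in WT and -2.49 ± 0.36 in Irg1-/- after restimulation. *Il23r*, a chain of the interleukin 23 receptor, had 0 reads in the Unstim. libraries and was higher in tolerized than in LPS 3h cells by 2.20 ± 0.55 and 2.33 ± 0.55 (adjusted p = 0.00414 and 0.00237). Its ligand chain *Il23a* was at or near 0 there. *Osmr* was lower in tolerized than LPS 3h cells, with log2 fold changes of -3.31 ± 0.93 and -3.31 ± 0.89 (adjusted p = 0.00868 and 0.00577).

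At LPS 3h over Unstim., 6 of 6 kinases and STATs rose in WT and 4 of 6 in Irg1-/-, 6 of the 6 tested feedback and gp130-STAT3 target genes rose in each genotype, and 13 of 13 regulators of cytokine transcripts did, beside 15.8% and 17.0% of all genes. The medians were 2.75, 4.30 and 3.16 in WT. Against LPS 3h, tolerized cells had 6 of 6 feedback and target genes lower and 10 of 13 regulators lower in each genotype, with medians of -1.78 and -1.91 in WT and -1.56 and -1.87 in Irg1-/-, beside 13.1% and 14.1% of all genes. Of the kinases and STATs, 2 of 6 were lower in WT and 3 of 6 in Irg1-/-, with medians of -0.87 in both. *Socs3*, the inhibitor that gp130 signalling induces, went from 2.16 ± 0.710 CPM in WT Unstim. to 944 ± 263 at LPS 3h, 116 ± 41.7 at LPS 24h and 263 ± 112 after restimulation. *Arid5a*, which stabilizes *Il6* mRNA, was lower in tolerized than LPS 3h cells, with log2 fold changes of -3.45 ± 0.37 and -4.33 ± 0.39 (adjusted p = 3.99e-08 and 1.26e-09, edgeR). *Irf8*, an activator of *Il12b*, was also lower, at -3.55 ± 0.32 and -2.92 ± 0.31 (adjusted p = 2.56e-09 and 2.76e-08). *Cebpb*, *Rela* and *Zc3h12a*, the last encoding an RNase that degrades *Il6* mRNA, did not pass in that comparison in either genotype. Over LPS 24h, restimulation raised 3 regulators in WT, *Nfkbiz* (1.42), *Rel* (1.42) and *Nfkb1* (1.54), and lowered *Irf8* (-1.45). In Irg1-/- it raised 7 and lowered *Arid5a* (-1.17). The difference between the genotypes in this response passed the test for none of the 13 regulators. Over all genes, restimulation raised 2.46% in WT and 3.44% in Irg1-/-. Between genotypes at LPS 24h, 1 of 6 feedback and target genes and 1 of 13 regulators passed, beside 0.598% of all genes. *Il4ra* was higher (1.41 ± 0.32, adjusted p = 0.0310, edgeR) and *Irf1* lower (-1.25 ± 0.29, adjusted p = 0.0314) in Irg1-/-. No tested receptor, kinase or STAT passed there. All 3 Irg1-/- LPS 24h libraries had prefix 1, as did 1 of the WT ones, and neither value was recomputed in the other settings.

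**Figure D5:**
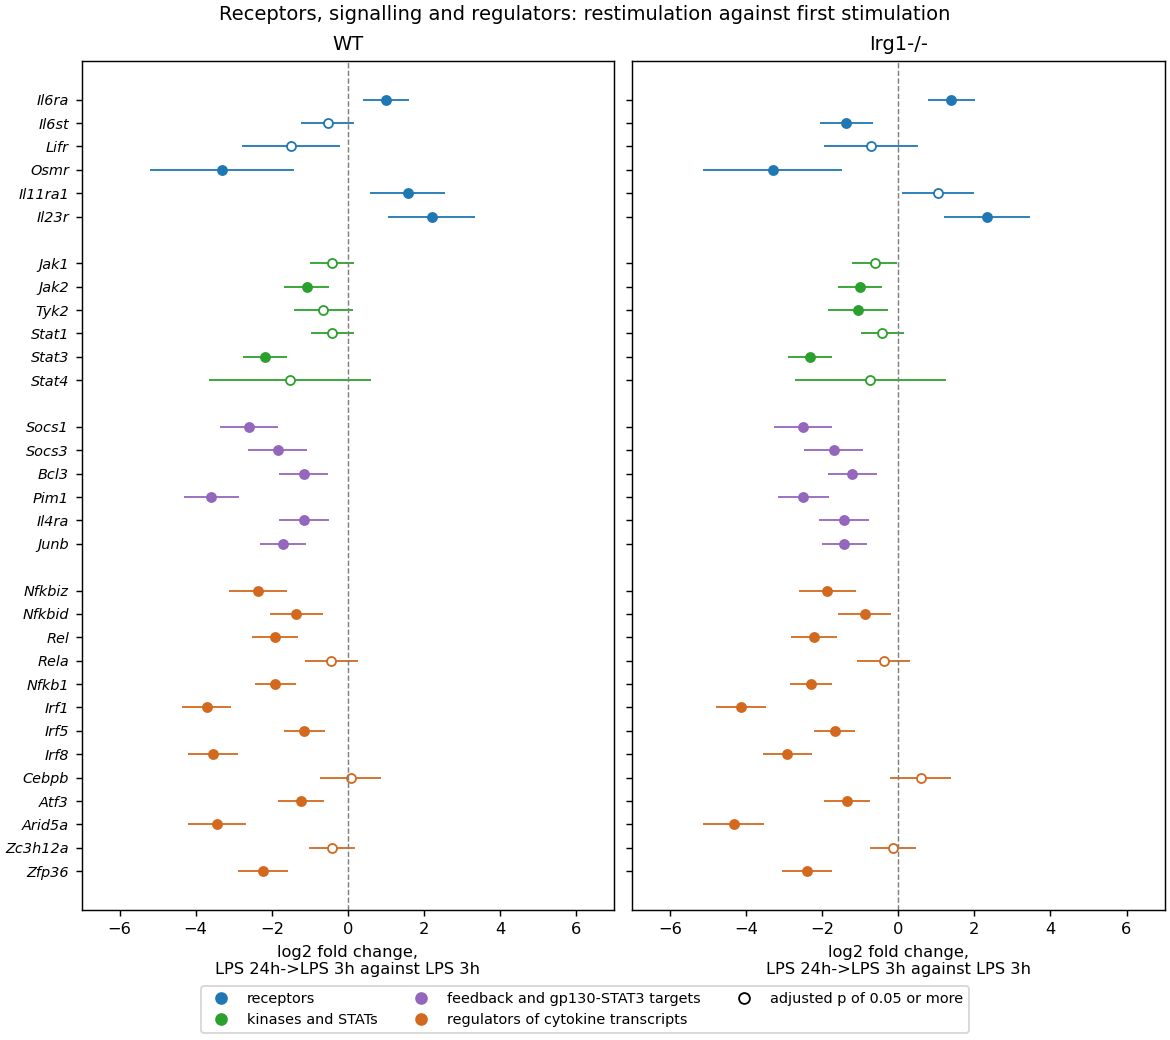
Log2 fold change of LPS 24h->LPS 3h against LPS 3h for tested receptors, kinases and STATs, feedback and gp130-STAT3 targets and regulators of cytokine transcripts, WT on the left and Irg1-/- on the right; points are edgeR estimates from 3 cultures per group, lines 95% intervals and open points an adjusted p of 0.05 or more. All 6 feedback and target genes are lower in tolerized cells of both genotypes, while *Il6ra* and *Il23r* are higher. The tested receptors *Il12rb1* and *Il12rb2* are not drawn, as each had 3 reads or fewer in 1 of the compared groups.

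The genes most like each member were taken as those with the highest Pearson correlation of log2 CPM over the 24 libraries, which share groups, name prefixes and depth. They were *Peli1* (0.981), *Sdc4* and *Nod2* for *Il6*, *Sdc4* (0.973), *Gbp5* and *Tnip3* for *Il12b*, *Sdc4* (0.977), *Cd40* and *Tnfsf15* for *Il27*, and *Stat5a* (0.971), *Slc44a1* and *Dll1* for *Il23a*. *Il12a* came closest to *Ccl3* (0.974), *Marcksl1* and *Cxcl1*, and *Lif* to *Spryd7* (0.947), *Nlrp3* and *Ccl3*. *Ebi3* was closest to *Acp5* (0.936), *Fcgr2b* and *Slc11a2*, and *Osm* had no gene above *Ifrd1* (0.812), followed by *Cct8* and *Ier5*. Among the members themselves, *Il6* and *Il27* were the most alike (0.965) and *Il23a* and *Osm* the least (0.355).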

How the data were processed

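RNA from BMDM cultures was sequenced from its poly(A) end with 12 PCR cycles and no molecular identifiers, so intervals and floors cover counting error only. The authors aligned reads to mm10 with STAR and deposited raw counts per Ensembl gene. The counting program, its annotation and its strand setting are not given in the sources used here. The 5 summary lines of the table were left out, and reads on genes made 48.0 to 59.4% of each column. Symbols came from GENCODE M21 (21745 of 22165 identifiers matched).

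All 24 libraries were fitted together by 8 groups with edgeR 4.0.16 (R 4.3.3): filterByExpr kept 11878 genes, TMM scaled the libraries, and the quasi-likelihood test gave p-values with Benjamini-Hochberg adjustment (threshold 0.05). The fit gave treatment contrasts within a genotype, genotype contrasts within a treatment, and interactions. A gene at 0 in 1 group was set against a floor of 3 reads over the group; groups with 1 to 3 reads got a ratio with an exact counting interval. Alternatives were DESeq2 1.42.0 (Wald test and size factors), no filter, a mean of at least 10 counts, the replicate number as a block, the numbered prefix of the library name as a term (a possible batch of unstated meaning), only the compared groups, and each culture left out. The cytokine genes, the gene lists and the rule for naming genes (all members whatever their values, the pathway lists counted whole with values for those the text names, *Acod1*, and the 3 tested genes most correlated with each member) were chosen with earlier results of these data known. The lists of related ligands, receptors, kinases and STATs, feedback genes, regulators and cell type markers were written by hand. Replicate numbers were not used as pairs in the main fit, and no 2 libraries agreed within sampling noise.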

Additional observations from a re-analysis of the deposited data

Results flagged for a closer look

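*Osm* at LPS 24h was flagged by a scan of the members for responses in which the cultures of the genotypes separated in opposite directions. All 3 WT cultures lay above every WT Unstim. culture (log2 fold change 1.26), and all 3 Irg1-/- cultures lay below every Irg1-/- Unstim. culture (-0.37). Neither change passed the test. With 3 cultures per group such separation can arise by chance, and its share over all genes was not computed. The difference between these changes was -1.63 ± 0.64 on the log2 scale (95% interval from -2.94 to -0.32). Its interaction test had an adjusted p of 0.458 by edgeR and so missed the threshold. The Irg1-/- LPS 24h libraries all had name prefix 1 and the Unstim. libraries prefix 4, so prefix and LPS treatment cannot be told apart within Irg1-/-.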

How the results depend on the processing

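The 57 member comparisons past the threshold with over 3 reads in each compared group were recomputed 798 times, of which 0 reversed and 46 missed the threshold. Calls with a group at 3 reads or fewer were not part of these 57, so their stability is not covered by these numbers. Restimulation over LPS 24h in WT called 3 members, against 5 with DESeq2's Wald test and 6 with no filter on low counts. Irg1-/- against WT at LPS 24h called 0, against 1 with the Wald test and 0 to 1 with a culture left out (1 without WT LPS 24h replicate 1). The interaction for LPS 24h over Unstim. called 0, against 1 with no filter, and LPS 24h over Unstim. in Irg1-/- called 4, against 2 to 5 with a culture left out (2 without Irg1-/- Unstim. replicate 3). Values not past the threshold changed sign as follows. *Osm* in Irg1-/- became -0.26 at LPS 3h over Unstim. with the prefix term, and -0.0137 with DESeq2's size factors and -0.0112 with its Wald test for restimulation against LPS 3h. With the replicate block nested in genotype, *Lif* at LPS 24h over Unstim. in Irg1-/- became -0.0084 and *Il6* between genotypes at LPS 24h became 0.13. With 1 culture left out, *Ebi3* for restimulation over LPS 24h ran from -0.50 to 0.39 in WT and from -0.23 to 0.14 in Irg1-/-, *Lif* at LPS 24h over Unstim. from -0.89 to 0.56 and from -0.49 to 3.86, and *Osm* for restimulation against LPS 3h from -0.11 to 0.23 and from -0.48 to 0.46. *Osm* in WT ran from -0.0743 to 0.27 for LPS 24h against LPS 3h and from -0.23 to 0.16 for restimulation over LPS 24h. Between genotypes *Il23a* after restimulation ran from -0.0649 to 5.97 and *Il6* at LPS 3h from -0.22 to 1.01. The cause of these changes was not tested.

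The replicate numbers gave little sign of paired cultures. Same-numbered libraries of 1 genotype had a median correlation of deviations of 0.014 across name prefixes and 0.060 within a prefix. The correlation was over 0.1 in 3 of 21 and 2 of 15 pairs. Differently numbered libraries of 1 genotype had medians of -0.0130 and 0.0105. In WT, replicates 1, 2 and 3 of each LPS treatment had prefixes 1, 2 and 4. These values do not exclude pairing. Counts of all genes called moved by over 1.5 times in several comparisons. With the prefix as a term, Irg1-/- calls went from 4260 to 2361 for LPS 3h over Unstim., from 4162 to 1771 for LPS 24h against LPS 3h and from 3233 to 1407 for restimulation against LPS 3h. Restimulation over LPS 24h called 474 genes in WT, against 109 with only the compared groups and 766 with the Wald test, and 611 in Irg1-/-, against up to 1080. Between genotypes the 5, 1, 71 and 14 genes called in Unstim., LPS 3h, LPS 24h and restimulated cells became 0 to 39, 1 to 32, 3 to 246 and 2 to 133, and the interactions' 1, 25, 1 and 0 became 1 to 26, 13 to 112, 0 to 170 and 0 to 68.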
